A study of Saccharomyces cerevisiae with 6 samples.

Results

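The interior of both arms of budding yeast chromosome XIII was taken as every 1-kb bin from 30001 to 895000 on sacCer3, leaving out the 40 kb around the centromere. The rule gave 825 bins, of 11579 nuclear bins with a row in the files, and it used positions alone and no measured value. Of these, 802 bins (207 on the left arm and 595 on the right arm) passed the limits on counts. Summaries over the interior rest on them, and running means near its edges also take in kept bins beyond it. The stretch holds the middles of 453 genes, 418 of them protein coding and 20 of them tRNA genes. The centromere lies in the gap of 1.22 kb between YPT7, which ends at 267800, and CDC5, which starts at 269019.

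Whole-genome sequencing measured how many copies of each stretch of DNA a culture held. All strains were W303-1a, a standard laboratory background, and they were orc2ΔN200 (labelled Orc2DeltaN200, Orc2 without its N-terminal stretch), orc2-I194E (labelled Orc2194E, a single-residue substitution in that stretch) and WT. The study asked how mutants of the Orc2 N-terminal domain change the firing of origins across the genome. Every strain went through the same regime: growth in YPG, arrest with α-factor, nocodazole in YPD while orc2-1 was depleted, a second α-factor arrest and release, with sodium azide added at harvest to stop elongation. Each was sampled at 30 min (S phase) and at 0 min (G1 phase), 1 library per strain and time, so no strain had a replicate. The controls thus shared the depletion of orc2-1 with the mutants, and how complete it was is not given in the labels. No test across samples was possible, no p-value is given, and each interval is a 95% interval that covers counting error only.

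In budding yeast, replication starts at short defined origins. The origin recognition complex, of which Orc2 is a subunit, binds them and loads the MCM helicase in G1 phase, and forks then run outwards from the origins that fire. In early S phase, DNA around early or frequently used origins has more copies than DNA between them, so a profile of copy number along a chromosome shows hills at sites of initiation and valleys where forks arrive last. In a culture, more cells that have copied a stretch and an earlier copying of it within each cell raise its share alike, and these cannot be told apart.

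The value of a bin is the log2 of its share of the S library over its share of the G1 library of the same strain label. A value of 0 is the genome mean, so all heights are relative. Values were averaged over a running window of 21 kb for hills, valleys and regions and over 5 kb for finer detail. The libraries held 3235720 to 3376203 counts in all. Over the kept bins of the chromosome XIII interior they held 200468 to 217391 counts, with a median of 249 to 273 per bin, so depth was much alike. The counting standard error of a 21-kb mean was near 0.028.

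One fact about the libraries touches all comparisons with WT. The bin over ORC2 itself (YBR060C, chromosome II, 361001 to 362000) stood above the 20 kb on its sides in every library, but not evenly. It was at 1.85 (S) and 1.70 (G1) times its flanks under the label orc2ΔN200, at 2.68 and 1.76 under orc2-I194E, and at 1.80 and 2.64 under WT. The marker gene LEU2 (chromosome III) crossed in the same way, with 2.52 and 1.62 under orc2-I194E against 1.74 and 2.59 under WT. By these levels S under orc2-I194E was close to G1 under WT, and S under WT to G1 under orc2-I194E. The pairing as labelled thus joins unlike levels, and whether labels were exchanged was not tested. Libraries are for this reason called by the label they carry, and results are also given with the labels WT and orc2-I194E exchanged among the S libraries or among the G1 libraries.

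The chromosome XIII interior gave a deep relief under the label WT and a flatter one under both mutant labels. The SD over bins of the 21-kb profile was 0.0978 (0.0897 to 0.106) in orc2ΔN200, 0.103 (0.0949 to 0.111) in orc2-I194E and 0.140 (0.132 to 0.149) in WT. Dividing the G1 libraries by each other gave SDs of 0.0317 (orc2ΔN200 over WT), 0.0337 (orc2-I194E over WT) and 0.0358 (orc2ΔN200 over orc2-I194E) over the same bins, well below every S profile. The counting interval of WT overlapped neither mutant. With the S labels exchanged the SD became 0.148 in orc2-I194E and 0.0936 in WT, so the deep relief went with the S library labelled WT. With the G1 labels exchanged it was 0.0936 in orc2-I194E and 0.148 in WT.

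By the outer 5% of bins at each end, the low end differed most. The lowest 5% of bins lay below -0.16 in orc2ΔN200, -0.18 in orc2-I194E and -0.30 in WT. The highest 5% lay above 0.12, 0.17 and 0.16 in the same order, where orc2-I194E and WT were close together. Bins at or above 0.1 made up 8.73% in orc2ΔN200, 9.35% in orc2-I194E and 18.2% in WT. Bins at or below -0.1 made up 32.0%, 35.8% and 32.3% in the same order. By these shares the strains differed at the high end and were much alike at the low end. The 9288 kept bins at the same margins on the other chromosomes had SDs of 0.110, 0.123 and 0.152, so the order of the strains was the same there. On single chromosomes those SDs ran from 0.0528 to 0.135 in orc2ΔN200, from 0.0676 to 0.168 in orc2-I194E and from 0.0964 to 0.174 in WT, and chromosome XIII lay inside each range.

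**Figure D1:**
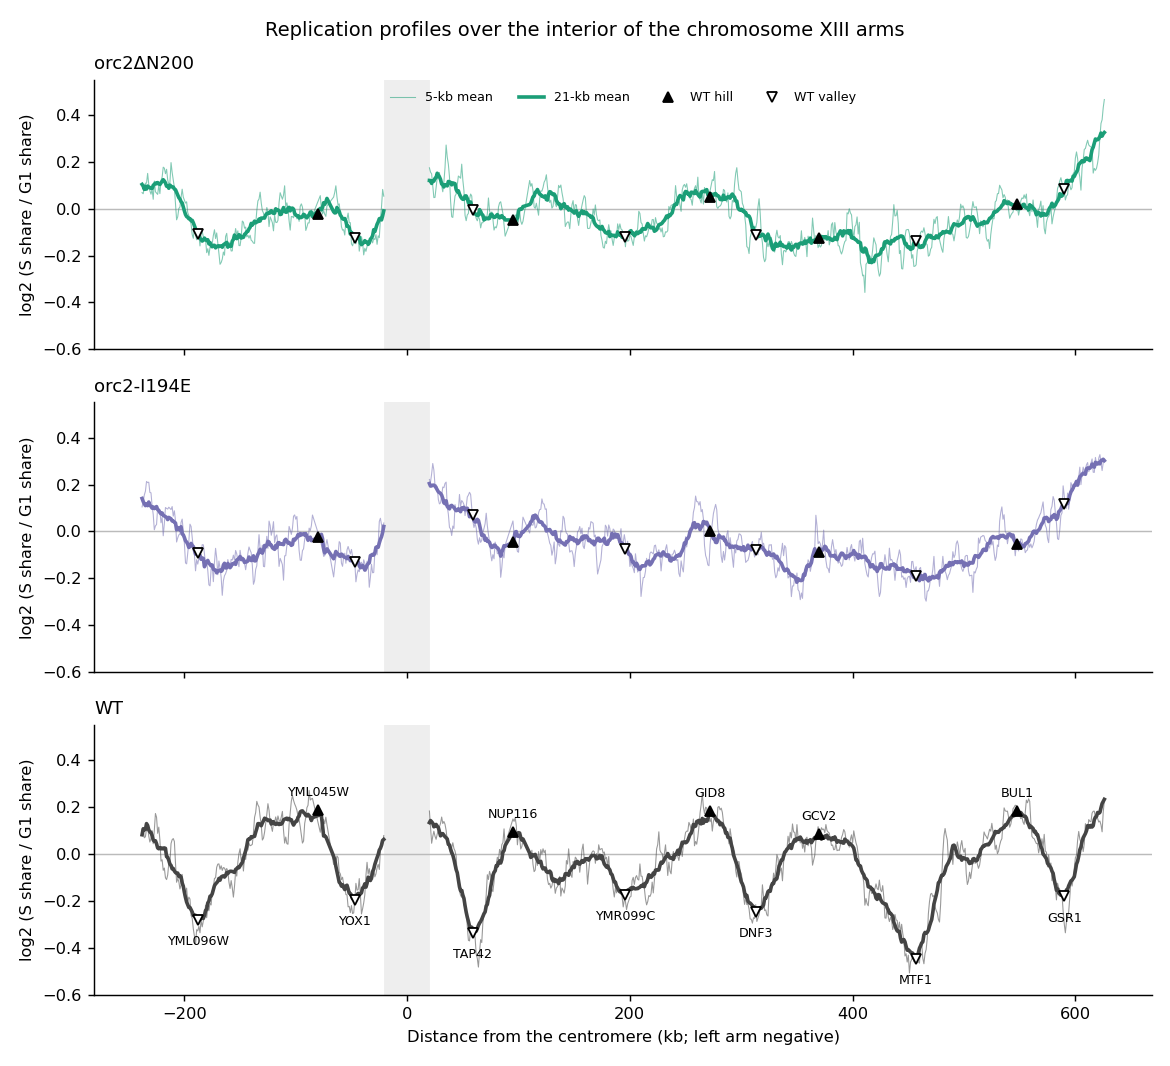
Log2 of the S share over the G1 share along the chromosome XIII interior for orc2ΔN200, orc2-I194E and WT, against distance from the centromere in kb. Thin lines are 5-kb and thick lines 21-kb running means, joined across short gaps of bins that were not kept, triangles mark hills and valleys of the WT profile, and grey marks the 40 kb left out. The WT 21-kb profile runs from -0.45 at MTF1 to 0.23 at the right edge, with its hills at up to 0.19. The mutant 21-kb profiles stay between -0.23 and 0.32 and are also highest at the right edge.

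Hills were local maxima of the 21-kb profile with a prominence of at least 0.2. The interior held 1 in orc2ΔN200, 1 in orc2-I194E and 5 in WT, and looser limits gave more. At a prominence of 0.1 there were 3, 4 and 7, and at 1 SD of each strain's own profile there were 3, 4 and 5. With the S labels exchanged the counts were 5 in orc2-I194E and 1 in WT.

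The WT hills lay at 188001, 363001, 540001, 638001 and 816001, and a sixth lay in the centromeric stretch left out here. Neighbouring WT hills were 73 to 178 kb apart (median 102 kb), and a hill and its next valley 33 to 108 kb. As the WT profile chose these positions, its values there are a description, and picking WT extremes by itself brings any other profile nearer to the middle.

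The hill at 540001 lies 444 bases from GID8 (YMR135C, 538689 to 540056), which encodes a subunit of the ubiquitin ligase that degrades gluconeogenic enzymes. Its 21-kb window held 5436 S and 5418 G1 counts in orc2ΔN200, 5058 and 5257 in orc2-I194E, and 5760 and 4947 in WT. This gave 0.052 (-0.0040 to 0.11) in orc2ΔN200, 0.0023 (-0.054 to 0.059) in orc2-I194E and 0.18 (0.13 to 0.24) in WT. It was the one place where all 3 profiles had a hill past the limit. The orc2ΔN200 hill lay 3 kb away over REC114 (meiotic recombination) at 0.081, and the orc2-I194E hill 6 kb away over RRB1 (ribosome assembly) at 0.042. Both mutants were thus lower than WT on a hill they kept, and the orc2ΔN200 interval for the difference from WT at its own hill included 0 (-0.14 to 0.019). The G1 libraries of orc2ΔN200 and orc2-I194E stood 0.072 and 0.052 above the WT G1 library in the GID8 window. There the mutant mean minus WT was -0.16 with the G1 library of the same label. It was -0.094 over the sum of all G1 libraries and -0.078 with the G1 labels exchanged.

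BUL1 (YMR275C, 815651 to 818581), an adaptor of the Rsp5 ubiquitin ligase, lies under the hill nearest the right end. Its window held 5546 S and 5628 G1 counts in orc2ΔN200, 5196 and 5646 in orc2-I194E, and 6257 and 5335 in WT. The values were 0.020 in orc2ΔN200, -0.054 in orc2-I194E and 0.18 in WT, and the differences from WT were -0.16 (-0.24 to -0.088) and -0.24 (-0.31 to -0.16). The top of this hill had sunk to about the genome mean in both mutants.

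GCV2 (YMR189W, 637500 to 640604), the glycine decarboxylase of the mitochondrial glycine cleavage system, marks a broad, low WT hill. There the values were -0.13 (-0.18 to -0.067) in orc2ΔN200, -0.089 (-0.15 to -0.031) in orc2-I194E and 0.085 (0.029 to 0.14) in WT. Both mutant intervals lay below 0 and the WT interval above it, so this stretch changed sides of the genome mean.

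At NUP116 (YMR047C, 363364 to 366705), a nuclear pore protein gene, the values were -0.048, -0.046 and 0.094, from 14 kept bins in the window. The mutant mean minus WT was -0.14 as labelled, -0.063 without the filter on G1 counts, -0.080 with the G1 labels exchanged and -0.091 over the sum of all G1 libraries. The orc2ΔN200 profile had a small valley of -0.058 in the next bin, where WT had its hill. The hill at 188001 lies inside YML045W, an open reading frame of a Ty1 retrotransposon, where bins had few or no counts. The bin at its top was not kept, and 13 of the 21 bins of its window were. This hill had -0.021 in orc2ΔN200, -0.023 in orc2-I194E and 0.19 in WT. It lies at the right end of a broad WT plateau that ran from about 125001 on the left arm.

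The 7 WT valleys were shallower in both mutants, each of them by the point value. The median over them was -0.11 in orc2ΔN200, -0.081 in orc2-I194E and -0.25 in WT. The interval of the difference from WT lay above 0 at 5 valleys in orc2ΔN200 and at 6 in orc2-I194E. Over the 5 WT hills the medians stood at -0.021, -0.046 and 0.18, and at each hill the intervals of both differences lay below 0.

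The deepest valley lay over MTF1 (YMR228W, 724626 to 725651), the specificity factor of mitochondrial RNA polymerase. Its window held 4963 S and 5603 G1 counts in orc2ΔN200, 4950 and 5928 in orc2-I194E, and 4075 and 5390 in WT. That gave -0.14 (-0.19 to -0.082) in orc2ΔN200, -0.19 (-0.25 to -0.14) in orc2-I194E and -0.45 (-0.51 to -0.39) in WT. The valley remained below the genome mean in all 3 profiles and was far shallower in the mutants.

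TAP42 (YMR028W, 327482 to 328582), a regulator of type 2A phosphatases in TOR signalling, marked the second deepest. Here the window held 5491 S and 5687 G1 counts in orc2ΔN200, 5698 and 5686 in orc2-I194E, and 4577 and 5567 in WT. The values were -0.0041 (-0.058 to 0.050), 0.068 (0.015 to 0.12) and -0.34 (-0.39 to -0.28), so a valley of WT stood at or above the genome mean in the mutants. The difference from WT was 0.33 (0.25 to 0.41) in orc2ΔN200 and 0.40 (0.32 to 0.48) in orc2-I194E. No other place in the interior had a larger rise of the mutant mean over WT.

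Near the right end, the valley over GSR1 (YMR295C, 858297 to 858890) had 6120 S and 5949 G1 counts in orc2ΔN200, 5904 and 5689 in orc2-I194E, and 4996 and 5486 in WT. The values were 0.082 (0.030 to 0.13), 0.12 (0.065 to 0.17) and -0.18 (-0.24 to -0.13), and the mutants again stood on the other side of the genome mean. Shallower but still low in the mutants was YML096W on the left arm, with -0.11, -0.090 and -0.28. DNF3, a phospholipid flippase gene, was alike with -0.11, -0.081 and -0.25.

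At 2 valleys the mutants were closer to WT. Over YOX1, which encodes a repressor of cell-cycle genes, the values were -0.12, -0.13 and -0.20, and both intervals of the difference included 0. Over YMR099C, a glucose-6-phosphate epimerase gene, they were -0.12, -0.077 and -0.17, with differences from WT of 0.055 (-0.023 to 0.13) in orc2ΔN200 and 0.097 (0.019 to 0.17) in orc2-I194E.

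**Figure D2:**
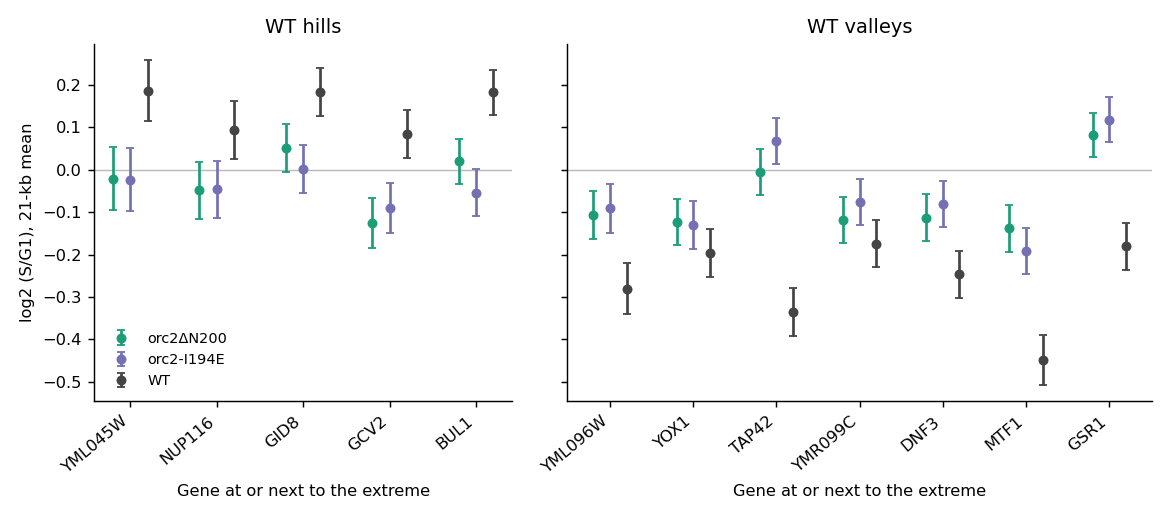
The 21-kb value (log2 S over G1) in orc2ΔN200, orc2-I194E and WT at the 5 hills and 7 valleys of the WT profile, left to right along the chromosome, 1 library per strain and time, with 95% counting intervals as bars. At every hill both mutant points lie below WT and at every valley above it, with MTF1 at -0.14, -0.19 and -0.45 and GSR1 at 0.082, 0.12 and -0.18.

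The step between a WT hill and its next valley was smaller in both mutants at every flank. The WT profile chose both ends of each flank, so smaller steps in any other profile are partly built in. Over the 12 flanks, with the centromeric hill included, the median step was 0.094 in orc2ΔN200, 0.073 in orc2-I194E and 0.41 in WT. At 3 flanks the WT hill stood below its valley in orc2ΔN200, and so it did at 3 in orc2-I194E. These were TAP42 to NUP116, DNF3 to GCV2 and BUL1 to GSR1 in both mutants. The largest step in WT, between MTF1 and BUL1, was 0.63, against 0.16 in orc2ΔN200 and 0.14 in orc2-I194E.

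Valleys called on the mutant profiles, 3 in each, gave a view in which WT chose nothing. At 463001, orc2ΔN200 had a valley 1 kb from the WT valley over YMR099C, with -0.12 in orc2ΔN200, -0.066 in orc2-I194E and -0.16 in WT. That of orc2-I194E at 477001, over PGM2, lay 13 kb from it, with -0.096, -0.16 and -0.14 in the same order. Both mutants had a valley at ALO1, an oxidase gene of erythroascorbate synthesis, which WT did not have: at 96001, where orc2ΔN200 called it, the values were -0.17 in orc2ΔN200, -0.16 in orc2-I194E and -0.13 in WT. The WT profile climbed through this place from its valley 16 kb away over YML096W. At 96001, and at 97001 where orc2-I194E called its valley, the intervals of both differences from WT included 0. At 685001, over the mevalonate kinase gene ERG12, orc2ΔN200 had its lowest point of -0.23 (-0.28 to -0.18), while orc2-I194E and WT stood at -0.15 each. The lowest point of orc2-I194E lay at 618001, over FPY1, at -0.22 (-0.27 to -0.16). The orc2ΔN200 profile, which had no part in choosing FPY1, had -0.15 (-0.21 to -0.097) there, and WT had 0.067 (0.012 to 0.12). This orc2-I194E valley lay 37 kb from the nearest WT valley, and orc2ΔN200 had no valley of its own near it. Maxima past a prominence of 0.1 but under 0.2 numbered 2 in orc2ΔN200 and 3 in orc2-I194E. One in each lay over STV1, a subunit gene of the vacuolar-type proton pump, at 385001 in orc2ΔN200 (0.082) and at 383001 in orc2-I194E (0.069). WT had -0.026 and -0.0013 at these positions. The other one of orc2ΔN200 lay at 196001 (YML039W), near the WT hill at 188001, with 0.044 in orc2ΔN200, -0.074 in orc2-I194E and 0.062 in WT. The other two of orc2-I194E lay at 172001 (GAL80) on the WT plateau, with -0.036, -0.0094 and 0.18, and at 643001 (SGS1) near the GCV2 hill, with -0.12, -0.063 and 0.077.

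The mutant profiles resembled each other much more than either resembled WT. Over the 802 bins the correlation of 21-kb values was 0.89 between orc2ΔN200 and orc2-I194E, 0.45 between orc2ΔN200 and WT, and 0.36 between orc2-I194E and WT. These are descriptions: neighbouring bins share their windows, and the members of a pair share no library. At 5 kb, where windows overlap less, they were 0.71, 0.37 and 0.29. By the major axis, orc2ΔN200 had a slope of 0.94 against orc2-I194E, so their reliefs were also of about the same size. Against WT the slopes were 0.48 for orc2ΔN200 and 0.46 for orc2-I194E. In the interior of the other chromosomes the 21-kb correlations were 0.88, 0.57 and 0.45, and whether chromosome XIII departs from these was not tested.

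Both arms showed this pattern. On the left arm the correlations were 0.92, 0.49 and 0.45, and on the right arm 0.88, 0.46 and 0.36. With the S labels exchanged over the whole interior they became 0.49 between the mutants, 0.88 between orc2ΔN200 and WT and 0.37 between orc2-I194E and WT, so the S library labelled WT is the one that stood apart. Exchanging the G1 labels in place of these gave 0.88, 0.49 and 0.37.

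**Figure D3:**
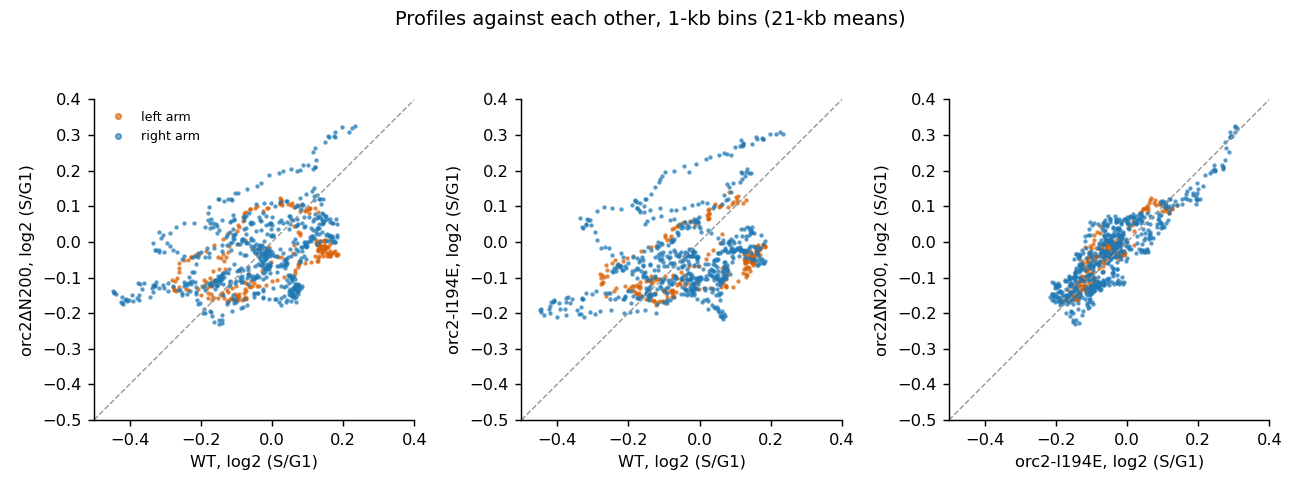
Profiles plotted against each other over the 802 kept 1-kb bins (21-kb means of log2 S over G1, left arm orange, right arm blue, dashed line for equal values). Points of orc2ΔN200 against orc2-I194E follow the diagonal (r = 0.89), while those of orc2ΔN200 (r = 0.45) and orc2-I194E (r = 0.36) against WT spread widely.

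Differences from WT were collected where the averaged mutant profile lay at least 0.15 above or below WT. In the interior 107 bins were higher and 134 lower (13.3% and 16.7%). Over all 11273 kept nuclear bins 14.7% were higher and 13.6% lower, so the share on chromosome XIII was near that of the genome. Centring each profile on its own median over the chromosome XIII interior gave 148 higher and 83 lower, so the split between both directions depends on the centring. With the S labels exchanged there were 3 and 42, and with the G1 labels exchanged 110 and 95.

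Taken singly, orc2ΔN200 was higher than WT in 117 bins and lower in 109, with 13.9% and 11.4% of all kept nuclear bins as background. For orc2-I194E the counts were 118 and 152, with a background of 16.7% and 16.6%. Both mutants are set against the same WT libraries, so their likeness in this measure is partly built in. Set against each other, orc2ΔN200 lay above orc2-I194E by 0.15 in 1 bin, at PKR1 (0.16 at 513001), and below it in 0, with 0.665% and 1.58% as background. In G1 libraries no bin of the interior reached 0.15 between either mutant and WT, with a background of 0% higher for both, and of 0.0444% lower for orc2ΔN200 and 0.0887% lower for orc2-I194E.

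8 runs of at least 10 kb passed this limit, 4 of them higher in the mutants (103 kb in all) and 4 lower (134 kb). The higher runs lay over WT valleys, and the lower ones over WT hills or the WT plateau of the left arm. Values below are from counts summed over a run, whose bounds were chosen by this same difference.

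**Figure D4:**
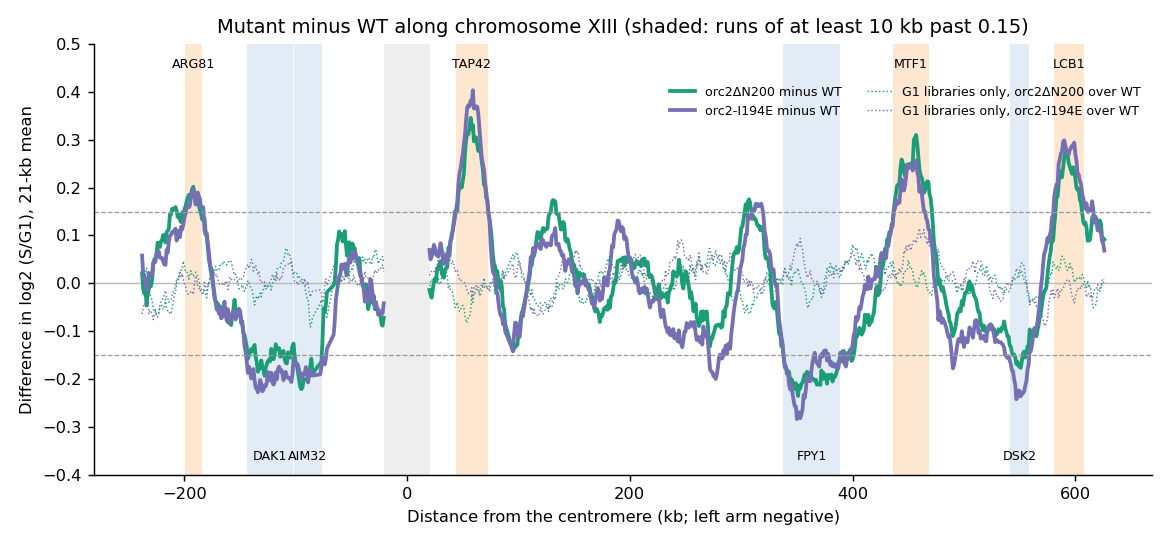
Difference of the 21-kb profiles of orc2ΔN200 and orc2-I194E from WT (solid lines, log2) along the chromosome XIII interior, with the same ratio of the G1 libraries alone (dotted). Orange shading marks runs of at least 10 kb where the mutant mean was higher by 0.15 or more and blue those where it was lower, each named by the gene at its largest difference. The solid lines reach 0.40 at TAP42 and -0.28 at FPY1, while the dotted lines stay between -0.091 and 0.11.

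The longest run lies at 606001 to 657000 on the right arm and was lower in the mutants. It held 11608 S and 13172 G1 counts in orc2ΔN200, 11516 and 13250 in orc2-I194E, and 13419 and 12447 in WT. The values were -0.14 (-0.17 to -0.10), -0.14 (-0.17 to -0.10) and 0.064 (0.029 to 0.10). Here WT had gained relative to the genome mean by 30 min and neither mutant had. Among its 30 genes are SGS1, a RecQ helicase that acts at stalled forks and recombination intermediates, GCV2, the Hsp90 gene HSC82 and the stress gene DDR48. The G1 libraries differed from WT by 0.015 (-0.020 to 0.051) and 0.037 (0.0016 to 0.072).

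On the left arm, a pair of neighbouring runs took up most of the WT plateau. The first, 125001 to 166000, had its largest difference at DAK1, a dihydroxyacetone kinase gene. It held 10393 S and 10943 G1 counts in orc2ΔN200, 9955 and 10989 in orc2-I194E, and 11755 and 10410 in WT. The values were -0.029 (-0.067 to 0.010), -0.076 (-0.11 to -0.037) and 0.13 (0.093 to 0.17). ORC1, the gene for the largest subunit of the complex to which Orc2 belongs, lies in this run, as do POB3, a subunit of the FACT histone chaperone, the helicase gene PIF1, and SML1 and HUG1, small inhibitors of ribonucleotide reductase.

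The second, 167001 to 192000 at AIM32, had 4804 S and 5030 G1 counts in orc2ΔN200, 4805 and 5053 in orc2-I194E, and 5682 and 4933 in WT. Its values were -0.021, -0.0058 and 0.16, from 19 kept bins. It holds GAL80, the repressor of the galactose genes. In both plateau runs WT stood above the genome mean and neither mutant did.

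The fourth lower run, 810001 to 827000, lies under the BUL1 hill and had its largest difference at DSK2, a ubiquitin shuttle gene. The values were 0.019 (-0.041 to 0.078) in orc2ΔN200, -0.060 (-0.12 to 0.00041) in orc2-I194E and 0.19 (0.13 to 0.25) in WT. The mutants differed from WT by -0.17 (-0.26 to -0.090) and -0.25 (-0.34 to -0.17).

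Among the higher runs, that at 312001 to 341000 over TAP42 showed the largest change. It held 7758 S and 7868 G1 counts in orc2ΔN200, 8018 and 7999 in orc2-I194E, and 6673 and 7773 in WT. The values were 0.025 (-0.020 to 0.071), 0.070 (0.026 to 0.11) and -0.26 (-0.31 to -0.22), with differences of 0.29 (0.22 to 0.36) and 0.33 (0.27 to 0.40). Its 18 genes include HOF1, which acts in cytokinesis, and ARP9, a subunit of chromatin remodellers. Summed over the run, WT lagged behind the genome mean and neither mutant did.

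The run at 705001 to 737000 over MTF1 held 7434 S and 8432 G1 counts in orc2ΔN200, 7386 and 8851 in orc2-I194E, and 6312 and 8046 in WT. The values were -0.14 (-0.18 to -0.091), -0.19 (-0.24 to -0.15) and -0.39 (-0.44 to -0.35). It holds MRE11, the nuclease gene of double-strand break repair. In G1 the orc2-I194E library stood 0.084 (0.041 to 0.13) above WT in this run, and a higher G1 level lowers S over G1 by construction. With the G1 labels exchanged the mutant mean lay 0.36 above WT, against 0.23 as labelled.

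The run at 849001 to 876000, at LCB1, a subunit gene of serine palmitoyltransferase, held 7961 S and 7629 G1 counts in orc2ΔN200, 7684 and 7331 in orc2-I194E, and 6770 and 7099 in WT. The values were 0.11 (0.062 to 0.15), 0.13 (0.088 to 0.18) and -0.11 (-0.16 to -0.065). Both mutants had gained copies here relative to the genome mean while WT lagged. The run also holds ADE4, the first enzyme gene of purine synthesis, and ADH2, an alcohol dehydrogenase gene.

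The shortest, 69001 to 84000 on the left arm, at the arginine regulator gene ARG81, had -0.083 (-0.15 to -0.019), -0.093 (-0.16 to -0.026) and -0.27 (-0.34 to -0.20). RAD10 and CAC2, a subunit gene of chromatin assembly factor 1, lie in it. With the S labels exchanged, the difference of the mutant mean from WT changed sign in all 8 runs, as orc2-I194E then carried the deep profile. With the G1 labels exchanged, the signs of all 8 stayed as labelled, with sizes from 0.15 to 0.36.

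**Figure D5:**
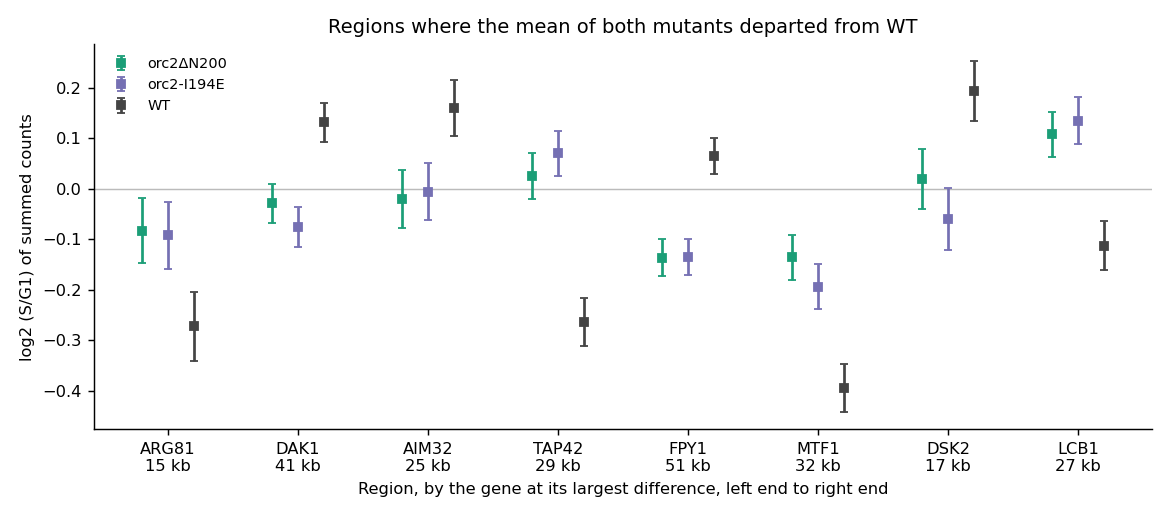
Log2 of S over G1 from counts summed over each of the 8 runs, in orc2ΔN200, orc2-I194E and WT, left to right along the chromosome, with 95% counting intervals as bars and the length of each run under its gene. The mutant points lie close together in every run, and WT lies apart, from 0.19 at DSK2 to -0.39 at MTF1.

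Larger stretches were compared next. Summed over the whole interior, S over G1 was -0.031 (-0.040 to -0.023) in orc2ΔN200, -0.045 (-0.054 to -0.036) in orc2-I194E and -0.033 (-0.041 to -0.024) in WT. The arms of chromosome XIII thus had gained slightly less than the genome mean by 30 min in every strain. The difference from WT was 0.0010 (-0.011 to 0.013) in orc2ΔN200 and -0.013 (-0.025 to -0.00031) in orc2-I194E. That genome mean takes in the bins near centromeres and chromosome ends. The median 21-kb values were -0.038, -0.065 and -0.026 here, against -0.033, -0.039 and -0.0025 in the interior of the other chromosomes.

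The left arm interior stood at -0.042 (-0.059 to -0.025), -0.066 (-0.083 to -0.048) and -0.012 (-0.029 to 0.0050). The right arm interior stood at -0.028 (-0.038 to -0.018), -0.038 (-0.048 to -0.028) and -0.040 (-0.050 to -0.029). The right arm minus the left arm came to 0.014 (-0.0057 to 0.034) in orc2ΔN200, 0.027 (0.0074 to 0.048) in orc2-I194E and -0.028 (-0.047 to -0.0075) in WT. By these sums the right arm led in orc2-I194E and the left arm in WT, each by a very small amount. By the median of bins the WT difference was -0.00085, and with the S labels exchanged it was 0.041, against -0.041 in orc2-I194E.

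Stretches of 100 kb showed where gains and losses balanced. From 100001 to 197000 the sums were -0.060 in orc2ΔN200, -0.089 in orc2-I194E and 0.085 in WT, with differences of -0.14 (-0.18 to -0.11) and -0.17 (-0.21 to -0.14). From 600001 to 700000 they were -0.15, -0.13 and -0.0041, with differences of -0.15 (-0.18 to -0.11) and -0.13 (-0.16 to -0.090). These were the 2 stretches in which both mutants fell clearly below WT.

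From 300001 to 400000 both mutants stood above WT, with 0.026, 0.028 and -0.083. The first stretch, 30001 to 100000, had 0.0076, -0.0061 and -0.086. In both stretches, and from 800001 to 895000, the intervals of both differences lay above 0. From 202001 to 300000 and from 400001 to 500000 the intervals of both differences included 0. The mutants parted in the other two stretches. From 500001 to 600000 the difference from WT was 0.012 (-0.023 to 0.047) in orc2ΔN200 and -0.039 (-0.074 to -0.0035) in orc2-I194E, and from 700001 to 800000 it was 0.045 (0.0092 to 0.080) and -0.0059 (-0.042 to 0.030).

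The 21-kb profile of every strain had its highest point of the interior at the right edge. Windows there also take in kept bins beyond the interior. At 21 kb the maximum lay over NIP1, a translation initiation factor gene, with 0.32 in orc2ΔN200, 0.31 in orc2-I194E and 0.23 in WT. From 800001 to 895000 the sums were 0.088 (0.063 to 0.11), 0.10 (0.076 to 0.13) and 0.052 (0.028 to 0.077). In WT the sum from 100001 to 197000 was higher, at 0.085. All 3 strains thus rose toward this end, where the interior stops by the rule.

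Finally, 18 genes of genome maintenance and the cell cycle were read at their middles on the 5-kb profile, of which 15 lie in the interior, while CDC5, SPT5 and TUB3 lie outside it. The counting interval of the difference from WT lay below 0 at 2 genes and above 0 at 2 in orc2ΔN200, and at 2 and 2 in orc2-I194E. Over all 5-kb windows 15.1% lay below and 16.6% above in orc2ΔN200, and 18.9% and 18.7% in orc2-I194E, so the list was near this background. The median difference over the 15 genes was -0.026 in orc2ΔN200 and -0.12 in orc2-I194E, against -0.0040 and -0.0028 over all windows.

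ORC1 (YML065W, 142210 to 144954) had -0.014 (-0.12 to 0.095) in orc2ΔN200, -0.072 (-0.18 to 0.039) in orc2-I194E and 0.22 (0.11 to 0.32) in WT. SGS1 (YMR190C, 640915 to 645258) had -0.13, -0.076 and 0.091. Both genes lie in runs that were lower in the mutants. MRE11 (YMR224C, 718575 to 720653) had -0.11 (-0.22 to 0.0025), -0.19 (-0.30 to -0.083) and -0.51 (-0.62 to -0.39), and the WT value was the lowest 5-kb value of that profile in the interior. RAD10 (YML095C, 81481 to 82113), part of the nuclease of nucleotide excision repair, had -0.11, -0.12 and -0.31. These 4 genes are those whose intervals excluded 0, and the same 4 did so in both mutants.

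The other 11 had intervals of the difference that included 0 in both mutants. They are CSM3 (fork protection), CTF18 (clamp loading), RAD52 (recombination), RAD14 and RAD33 (excision repair), YKU80 (end joining), RNH1 (ribonuclease H), CLN1 (a G1 cyclin), CTF13 (kinetochore), TUB1 (α-tubulin) and MCM1 (a transcription factor). At CSM3, next to the NUP116 hill, the values were -0.068, -0.085 and 0.040. At a counting error this wide, smaller differences at a single gene were not detectable.

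The 23 bins of the rule that were not kept fall into 5 places. 22 of them lie in 4 stretches over YML045W, YML039W, YMR045C and YMR050C, open reading frames of Ty1 elements, of which 16 bins had no row in any library. The last, 633001 to 634000, lies in HSC82, whose sequence is close to that of its paralog HSP82, and held 40 to 59 counts in each library. The windows of the hills at YML045W and NUP116 are short for this reason.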

How the data were processed

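Whole-genome sequencing libraries of 3 strains at 30 min (S) and 0 min (G1) were used, 1 each. The authors deposited counts per 1-kb bin, whole numbers without scaling. Per the submitters' processing notes the tools were bedtools 2.31.0, SAMtools 1.18, Picard 2.27.5, Bowtie2 2.5.3 and R 4.3.0, on sacCer3. What each tool did, which filters were set and what a count is (a read or a fragment) are not given in the sources used here.

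The log2 ratios were computed here from the deposited counts in Python 3.11.15 (pandas 2.3.3, matplotlib 3.10.9, SciPy 1.17.1, numpy 2.4.6). The rDNA array on chromosome XII was left out. A bin was kept if every library had a count and G1 counts lay between 0.3 and 3 times the library median. Of 11579 nuclear bins, 11273 were kept, with medians over them of 255 to 273 counts across the S and G1 libraries. Shares were taken over the kept bins. Running means were formed over the kept bins of a chromosome, and hills needed a prominence of 0.2. Intervals come from Poisson errors, at 95%, by error propagation. PCR copies are not independent molecules, so they cover counting error only. The 21-kb running means, their intervals and their SD were first set against known values on simulated counts, and hills were only counted there. The counting interval of the SD was not part of this. The other steps were not tested in this way.

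Genes came from a RefSeq table of 6477 genes (assembly R64, which sacCer3 also is), which was used for names and positions and lists no origins. Named genes were those at WT hills and valleys, at mutant hills more than 15 kb from a WT hill (there were none), at the largest difference in runs of 10 kb or more, and the gene list. Mutant valleys, maxima past a prominence of 0.1, edge genes and other genes of runs were chosen after values were seen. The members, lists and settings were chosen with earlier results of these data known. Alternatives varied the G1 denominator, bin filter, window, prominence, threshold, centring and labels.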

Additional observations from a re-analysis of the deposited data

Results flagged for a closer look

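In 2 runs of chromosome XIII the counting interval of WT lay on one side of the genome mean and those of both mutants on the other. With 1 library per strain and time these differences were not tested. The bounds of the runs were chosen by the same difference, so a distance between WT and the mutants is partly built in. At the FPY1 run, 606001 to 657000, the mutant mean was lower than WT by a log2 difference of -0.20 (-0.14 in orc2ΔN200, -0.14 in orc2-I194E and 0.064 in WT). At the LCB1 run, 849001 to 876000, it was higher by 0.23 (0.11, 0.13 and -0.11). The right arm minus the left arm also ran in opposite directions, with 0.027 in orc2-I194E and -0.028 in WT, a difference of 0.055 that was not tested either. Exchanging the S labels of WT and orc2-I194E turned the sign of all 3 results.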

How the results depend on the processing

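Each value rests on 1 library per strain and time, and the depth leaves a counting standard error near 0.028 for a 21-kb mean and 0.057 for a 5-kb mean. No paired analysis was possible because each group has 1 library, and leaving out a library leaves no ratio for its strain. For the results on the interior as a whole, 22 of 82 values under other settings moved (a count by over 1.5 times, an SD or arm difference beyond its 95% counting interval) and 2 turned. The other 58 lay within these tolerances, which are wide for small values. Alternatives for single hills, valleys, runs and genes were added after seeing the data. Of 175 such values 35 had the other sign, 34 with the S labels exchanged and 1, at YKU80 (0.052), with the G1 labels exchanged. At 24 of the 35 the interval of the value as labelled excluded 0, and all 24 are given next. The G1 exchange also brought RAD10 to 0.12 (0.19 as labelled) and the YMR099C valley to 0.14 (0.076 as labelled).

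Exchanging the S labels gave SDs of 0.148 in orc2-I194E and 0.0936 in WT, hill counts of 5 and 1, 3 bins higher and 42 lower in the mutants, and a right minus left arm of -0.041 in orc2-I194E and 0.041 in WT. The mean of mutants minus WT then became -0.061 at the ARG81 run, 0.090 at DAK1, 0.10 at AIM32, -0.17 at TAP42, 0.044 at FPY1, -0.20 at MTF1, 0.10 at DSK2 and -0.13 at LCB1. At WT hills it was 0.11 (YML045W), 0.0076 (NUP116), 0.037 (GID8), 0.075 (GCV2) and 0.115 (BUL1). At WT valleys it was -0.093 (YML096W), -0.040 (YOX1), -0.20 (TAP42), -0.13 (YMR099C), -0.084 (DNF3), -0.23 (MTF1) and -0.16 (GSR1), and at genes 0.12 (ORC1), 0.021 (SGS1), -0.028 (RAD10) and -0.15 (MRE11). This follows from its construction, as the deep profile then carries the other label. Exchanging the G1 labels moved the SD of orc2-I194E to 0.0936.

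Hill counts moved to 2 in orc2ΔN200 and 4 in orc2-I194E with an 11-kb window, to 3 and 4 at a prominence of 0.1, to 3 and 4 at 1 SD, and to 0 in orc2-I194E with the pooled G1 denominator. The SD of WT was 0.149 with an 11-kb and 0.1305 with a 31-kb window. A difference of 0.1 gave 181 bins higher and 209 lower, one of 0.2 gave 63 and 26, and centring on chromosome XIII gave 148 and 83. The right minus left arm of WT was -0.00085 by the median of bins. Changed windows and limits act by construction, and for the other moved values the cause was not tested.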

Other observations

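At the 5-kb scale the highest window of the interior in WT lay over PRM6, a pheromone-regulated gene on the left arm, at 0.27. In orc2ΔN200 it lay over NIP1 at 0.47 and in orc2-I194E over PSE1, an importin gene, at 0.33, both at the right edge. The lowest windows were -0.36 over HFA1 in orc2ΔN200, -0.30 over PEP5 in orc2-I194E and -0.51 over MRE11 in WT. The orc2-I194E G1 library stood 0.19 above that of WT in a 5-kb window at 733001, near the low window over PEP5.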
